A study of Homo sapiens with 8 samples.

Results

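The transcripts described here are those of the human mitochondrial genome: the 37 rows of the deposited count table whose symbol starts with MT-, of 62700 rows in all. They comprise 13 protein-coding genes (mRNAs), 2 ribosomal RNA genes and 22 tRNA genes, and the classes and respiratory complexes were treated apart. They were measured in foam cells made from THP-1, a human monocytic leukaemia line that becomes macrophage-like with PMA, a phorbol ester (50 ng/mL, 72 h), and fills with cholesteryl esters when given acetylated LDL (AcLDL, 48 h). The AF group received 0.5 µM auranofin (AF), a gold-containing drug that blocks thioredoxin reductase, and the DMSO group received its vehicle at below 0.1% by volume. There were 4 libraries in each group. Per the sample protocol, drug or vehicle was given for 24 h before the lipid load and kept on to the end; the design text of the series instead has it follow the load. Every group therefore shares the PMA, the AcLDL and the one leukaemic line. The labels do not say that the 4 libraries of a group came from separate cultures, so p-values reflect library-to-library spread alone, part of which may be technical.

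The mitochondrial genome is a small circle present in many copies per cell, and it encodes core subunits of the respiratory chain together with the rRNAs and tRNAs needed to translate them. Both of its strands are transcribed as long precursors by a nuclear-encoded RNA polymerase, and most mRNAs and both rRNAs are released when the tRNAs that lie between them are cut out. The heavy-strand precursor carries both rRNAs, most tRNAs and every mRNA except MT-ND6, which comes from the light strand. Mature mitochondrial mRNAs mostly carry short poly-A tails, whereas mature tRNAs do not, and the libraries here were made from poly-A RNA.

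Deposited counts summed to between 24522949 and 32325981 per AF library and between 19336073 and 27278947 per DMSO library. AF replicate 1 stood apart. Nuclear ribosomal RNA held 34.8% of the counts there, but only 0.809% to 0.852% in AF replicates 2 to 4 and 0.743% to 0.963% in the DMSO libraries. Small RNAs without mRNA-like tails were also high in it: RN7SL1, the RNA of the signal recognition particle, had 2138 CPM (counts scaled to the size of the library) in AF replicate 1, against at most 65.9 CPM in any other library. Values without that library are therefore given for each class of transcripts and wherever a call, an overlap of the groups or a size changed. The 10 macrophage markers checked were all detected, the lowest at a mean of 5.46 CPM, and of 12 markers of T, B, epithelial, fibroblast, endothelial and erythroid cells 11 averaged under 1 CPM and 3 (MS4A1, EPCAM and HBB) had no counts. The summed level of those 12 markers was 4.80 to 6.08 CPM in AF and 6.25 to 7.73 CPM in DMSO libraries, most of it VWF at a mean of 4.27 CPM, and its part in the results was not tested. Of the macrophage markers CD14 and ITGAM were higher and LYZ and MRC1 lower with auranofin by the edgeR test; without AF replicate 1 CD14 did not pass (0.29, edgeR adjusted p = 0.052) and CSF1R was lower (-0.25, adjusted p = 0.016). Of the others COL3A1 was lower, with a mean under 1 CPM in both groups.

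The mitochondrial mRNAs made up a smaller share of the counts with auranofin. They held 1.10%, 1.81%, 1.76% and 2.00% of all counts in AF replicates 1 to 4, against 2.11%, 2.41%, 2.52% and 2.21% in DMSO replicates 1 to 4. The 2 mitochondrial rRNAs showed the opposite order, with 0.821%, 0.504%, 0.511% and 0.558% in AF libraries and 0.434%, 0.424%, 0.459% and 0.457% in DMSO libraries. Neither share overlapped between the groups, with or without AF replicate 1. Counting error was small beside these differences: the 95% Wilson interval of the mRNA share of AF replicate 1 was 1.096% to 1.104%, which covers counting error only. The share held by the mRNAs was lower by 0.643 percentage points in AF than in DMSO on average, and by 0.454 points without AF replicate 1. Without the nuclear ribosomal RNA the mRNA share of AF replicate 1 was 1.69%, close to the 1.78% to 2.01% of the other AF libraries, while its mitochondrial rRNA share, at 1.26%, remained above their 0.508% to 0.563%. The 22 tRNAs held at most 0.0206% of an AF library and, as a group, did not separate the treatments.

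**Figure D1:**
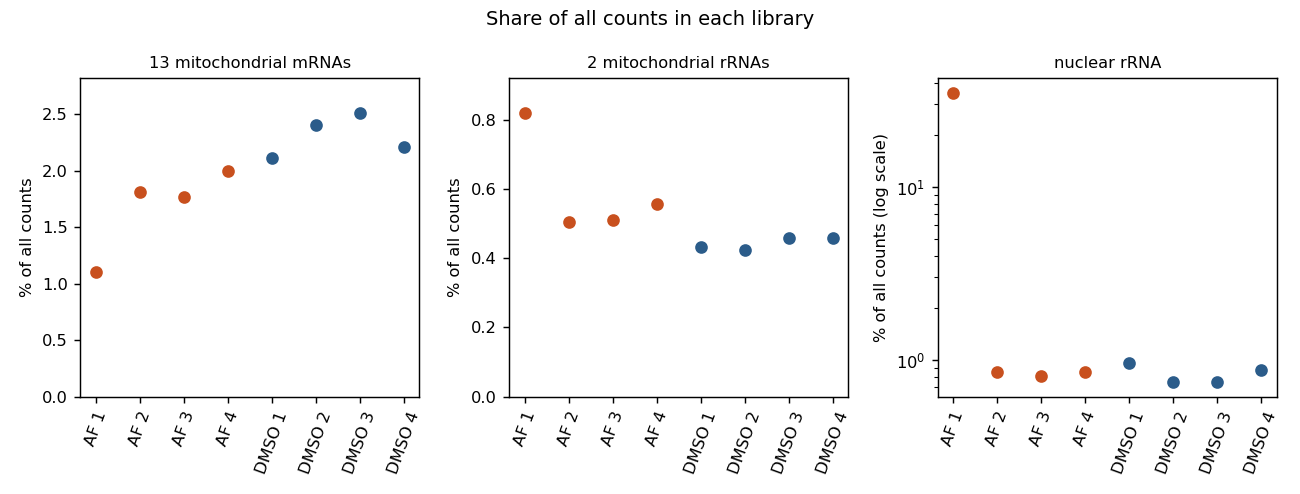
Share of all counts held by the 13 mitochondrial mRNAs, the 2 mitochondrial rRNAs and nuclear ribosomal RNA (% of all counts, log scale in the last panel), 1 point per library, AF libraries at left. The mRNA share lies below every DMSO library in all 4 AF libraries, the mitochondrial rRNA share lies above, and nuclear ribosomal RNA reaches 34.8% in AF replicate 1 only.

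Most of the mitochondrial mRNAs fell. In the edgeR quasi-likelihood fit over 17535 genes, with Benjamini-Hochberg adjustment over all of them and a threshold of 0.05, 10 of the 13 mRNAs were lower with auranofin and none was higher, where 7.81% of all genes tested were called lower and 7.62% higher. All 13 log2 fold changes (AF over DMSO) were negative, between -0.74 and -0.24, with a median of -0.36, while the median of all genes tested was 0.005. Without AF replicate 1, 12 were lower, where 8.2% of all genes were, and the median was -0.34; these were the same 10, at -0.72 to -0.26, plus MT-ND4 and MT-CO1. In 10 of the 13 every AF library was below every DMSO library, with or without AF replicate 1, where 9.68% of all genes tested had that order with 8 libraries and 9.86% the opposite one. In bulk RNA, less of these transcripts per cell and fewer cells that hold them cannot be told apart.

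Complex I takes electrons from NADH and pumps protons, and the mitochondrial genome encodes 7 subunits of its membrane arm, of which 6 fell. MT-ND1, which lines the quinone-binding site, had 831, 810.0, 794 and 889 CPM in AF replicates 1 to 4, against 1042, 1302, 1428 and 1052 CPM in DMSO replicates 1 to 4. MT-ND2, an antiporter-like subunit of the proton-pumping arm, had 737, 760.2, 734 and 862 CPM in AF, against 1041, 1179, 1270.1 and 1078 CPM in DMSO. For both genes every AF library was below every DMSO library, with AF replicate 4 the highest AF library. MT-ND3, a small subunit next to the quinone site, had 305, 324, 285 and 318 CPM in AF, against 474, 406, 405 and 531 CPM in DMSO. Its AF values lay close together, and its DMSO values divided, with DMSO replicates 1 and 4 above replicates 2 and 3, the reverse of MT-ND1 and MT-ND2. These 3 genes had the largest falls of complex I. The log2 fold changes were -0.54 ± 0.10 for MT-ND1 (SE, edgeR adjusted p = 0.0022), -0.56 ± 0.08 for MT-ND2 (adjusted p = 0.0004) and -0.56 ± 0.09 for MT-ND3 (adjusted p = 0.0006), which left them at 67.7% to 68.9% of their mean level in DMSO.

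The other members of complex I had smaller log2 fold changes, and the differences between members were not tested. MT-ND5, another antiporter-like subunit, had 1463, 1579.7, 1566 and 1665 CPM in AF, against 1886, 2080.2, 2272 and 1957 CPM in DMSO. MT-ND4L, a small membrane subunit, had 600.3, 602, 576 and 705 CPM in AF, against 744, 813, 872 and 745 CPM in DMSO. MT-ND6, the one mRNA read from the light strand, had 303, 358, 318 and 354 CPM in AF, against 419, 424, 421 and 441 CPM in DMSO. None of these 3 overlapped between the groups, and the DMSO values of MT-ND6 were the most even, with an SD of 9.92 CPM around a mean of 426 CPM. By edgeR their log2 fold changes were -0.39 ± 0.08 for MT-ND5 (SE, adjusted p = 0.0051), -0.35 ± 0.08 for MT-ND4L (adjusted p = 0.0095) and -0.36 ± 0.07 for MT-ND6 (adjusted p = 0.0032). MT-ND4, the third antiporter-like subunit and the complex I mRNA with most counts, had 2746, 2926, 2829 and 3379 CPM in AF, against 3237, 3671, 3802 and 3448 CPM in DMSO. Its groups overlapped, since AF replicate 4 was above DMSO replicate 1, and its log2 fold change of -0.25 ± 0.09 did not pass with 8 libraries (edgeR adjusted p = 0.067) but did without AF replicate 1 (-0.22, adjusted p = 0.043) and without AF replicate 4 (-0.32, adjusted p = 0.015).

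MT-CYB encodes cytochrome b, the single subunit of complex III made in mitochondria, which passes electrons from ubiquinol towards cytochrome c. It had the largest fall of all mRNAs. Its level was 487, 521, 487 and 569.6 CPM in AF replicates 1 to 4, against 758, 906, 959 and 821 CPM in DMSO replicates 1 to 4. The highest AF library was thus well below the lowest DMSO library, and the AF mean was 59.9% of the DMSO mean. The log2 fold change was -0.74 ± 0.09 (SE, edgeR adjusted p = 5.9e-05) and -0.72 without AF replicate 1 (adjusted p = 8.3e-06). Its call held under each alternative processing tried here.

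Complex IV, cytochrome c oxidase, passes electrons to oxygen, and of its 3 mitochondrial subunits 1 passed with 8 libraries. MT-CO1, which holds the oxygen-reducing centre, had 5003, 5459, 5207 and 5817 CPM in AF, against 5815, 6792, 6915 and 5935 CPM in DMSO. MT-CO2, which takes electrons from cytochrome c, had 1954, 2199, 2139.6 and 2481 CPM in AF, against 2107, 2889, 3219 and 2244 CPM in DMSO. In MT-CO1 AF replicate 4 and DMSO replicate 1 were level, and in MT-CO2 3 AF libraries lay above the lowest DMSO library. DMSO replicates 2 and 3 averaged 1.40 times the level of DMSO replicates 1 and 4 for MT-CO2, the widest such division of any mRNA. Neither gene passed with 8 libraries, with log2 fold changes of -0.24 ± 0.09 for MT-CO1 (edgeR adjusted p = 0.078) and -0.25 ± 0.12 for MT-CO2 (adjusted p = 0.19). MT-CO1 passed without AF replicate 1 (-0.22, edgeR adjusted p = 0.042) and without AF replicate 4 (-0.28, adjusted p = 0.0453), and MT-CO2 did not without AF replicate 1 (-0.21, adjusted p = 0.23). MT-CO3, the third core subunit, had 780.2, 813, 793 and 884 CPM in AF, against 964, 1146, 1193 and 973 CPM in DMSO. Its groups did not overlap, and it fell by 0.39 ± 0.08 on the log2 scale (edgeR adjusted p = 0.0069).

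Complex V, ATP synthase, has 2 mitochondrial subunits in its membrane part, and both fell. MT-ATP6, which forms the proton path with the rotor ring, had 758, 779, 734 and 895 CPM in AF, against 970.3, 1008, 995 and 1005 CPM in DMSO. MT-ATP8, a small stator subunit, had 243, 246, 246 and 258 CPM in AF, against 265, 299.9, 338 and 294 CPM in DMSO. All 4 AF libraries were below all 4 DMSO libraries for both. The falls were 0.33 ± 0.08 for MT-ATP6 (log2, SE, edgeR adjusted p = 0.0088) and 0.27 ± 0.07 for MT-ATP8 (adjusted p = 0.020). MT-ATP8 lost its call when AF replicate 3 (adjusted p = 0.056), DMSO replicate 2 (0.051) or DMSO replicate 3 (0.069) was left out.

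Both genes are read from one transcript and share bases. How reads over the shared bases were counted is not given, so their counts may not be separate measurements there. The end of MT-ATP8 (chrM:8497-8572) and the start of MT-ATP6 (chrM:8527-8602), plus strand, are shown because the 46 shared bases, in capitals, are 22.2% of MT-ATP8. Sequences here are from GENCODE 29 on GRCh38, written 5′ to 3′.
MT-ATP8 end: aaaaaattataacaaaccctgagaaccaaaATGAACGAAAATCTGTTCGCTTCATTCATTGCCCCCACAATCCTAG
MT-ATP6 start: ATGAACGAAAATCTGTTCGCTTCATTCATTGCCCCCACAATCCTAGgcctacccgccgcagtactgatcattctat
MT-ND4L and MT-ND4, the other pair on a shared transcript, overlap by only 7 bases, and MT-ATP6 and MT-CO3 by 1 base. The ratio of MT-ATP8 to MT-ATP6 counts was 0.288 to 0.335 in AF and 0.273 to 0.339 in DMSO libraries, so the pair did not part with treatment. The ratio of MT-ND4L to MT-ND4 counts was 0.204 to 0.219 in AF, against 0.216 to 0.230 in DMSO libraries. The overlap came from AF replicate 1, since AF replicates 2 to 4 lay at 0.204 to 0.209, below every DMSO library.

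**Figure D2:**
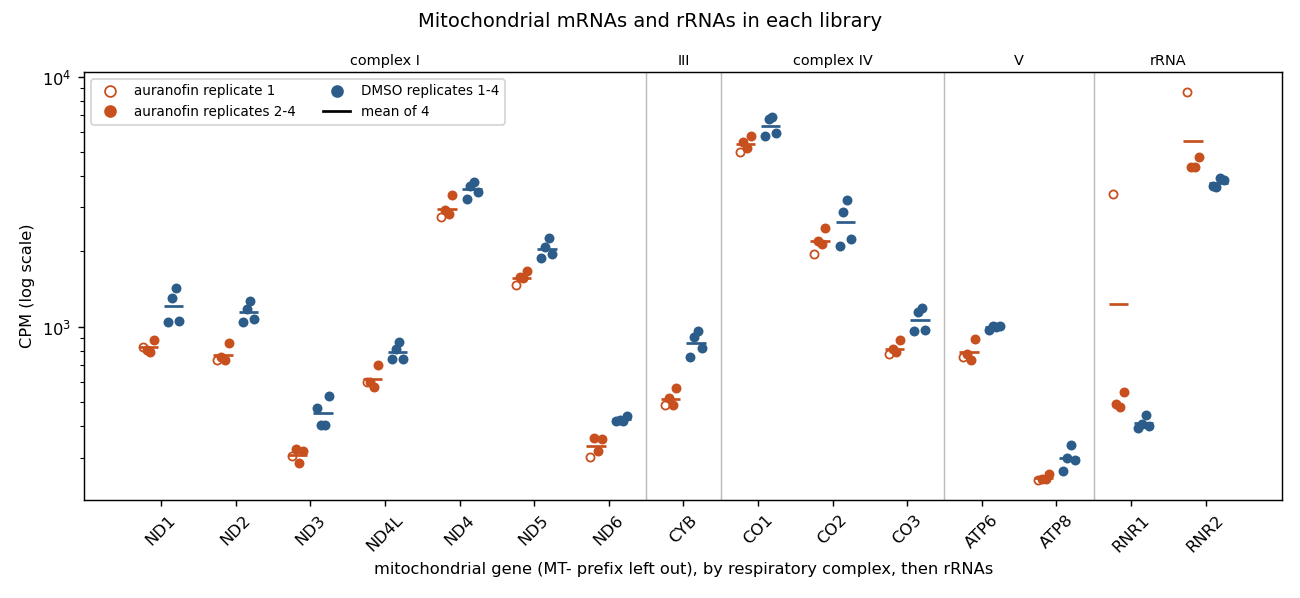
CPM per library (log scale) of the 13 mitochondrial mRNAs, ordered by respiratory complex, and of the 2 rRNAs, with AF libraries left of DMSO libraries, a horizontal bar for each mean of 4 and an open circle for AF replicate 1. AF points lie below DMSO points for 10 mRNAs (9.68% of all genes tested) and overlap them for MT-ND4, MT-CO1 and MT-CO2, and AF replicate 1 departs from its group only for the rRNAs.

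Levels differed several-fold between genes of one precursor. Per kilobase of gene length, MT-CO1 was the highest mRNA in both groups, at 3483 ± 228 CPM per kilobase in AF and 4127 ± 369 in DMSO (SD, n = 4 each), with MT-CO2 next at 3207 ± 319 in AF and 3823 ± 771 in DMSO. These neighbours did not differ beyond their spread. MT-ND4L and MT-ND4 followed, at 2091 ± 193 and 2155 ± 205 CPM per kilobase in AF and 2671 ± 207 and 2569 ± 181 in DMSO, again within their spread of each other. The next 7 genes lay in a lower band, from MT-ATP8 (1199 ± 31.2 in AF, 1444 ± 145 in DMSO) and MT-ATP6 (1162 ± 105 in AF, 1460.4 ± 25.1 in DMSO) down to MT-ND2 (742 ± 57.8 in AF, 1096 ± 99.3 in DMSO). The lowest mRNA per kilobase was MT-CYB, at 452 ± 34.1 in AF and 755 ± 78.3 in DMSO, below the light-strand MT-ND6 at 634 ± 51.8 in AF and 812 ± 18.9 in DMSO. In DMSO these 2 genes lay within their spread of each other, so the mRNA with the largest fall was among the lowest per length there.

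Near-copies of mitochondrial genes in the nuclear genome shared in these values. The 7 such pseudogenes with a mean of at least 1000 counts were copies of MT-ND1, MT-ND2, MT-CO1, MT-CO2, MT-ATP6 and MT-CO3, all on chromosome 1, and of MT-ND4 on chromosome 5. The 6 copies on chromosome 1 matched their mitochondrial genes at 98.1% to 98.7% of aligned bases, so that 29.1% to 61.9% of their 50-base stretches also occur in the mitochondrial gene. MTCO1P12 is shown beside MT-CO1 for its first 120 bases (plus strand of chr1:631074-631193 and chrM:5904-6023), with the 1 base that differs in capitals.
MTCO1P12: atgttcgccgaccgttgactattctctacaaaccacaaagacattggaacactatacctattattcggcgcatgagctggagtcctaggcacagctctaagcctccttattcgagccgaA
MT-CO1: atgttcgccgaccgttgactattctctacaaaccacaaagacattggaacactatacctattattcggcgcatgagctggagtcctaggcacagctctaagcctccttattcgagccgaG
The copy on chromosome 5, MTND4P12, matched MT-ND4 at 95.7% and shared only 3.46% of its 50-base stretches. The first 120 bases of each are shown for contrast (minus strand of chr5:134927917-134928036, plus strand of chrM:10760-10879), with differing bases in capitals.
MTND4P12: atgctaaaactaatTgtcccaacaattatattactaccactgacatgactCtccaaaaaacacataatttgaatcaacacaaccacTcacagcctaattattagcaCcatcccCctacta
MT-ND4: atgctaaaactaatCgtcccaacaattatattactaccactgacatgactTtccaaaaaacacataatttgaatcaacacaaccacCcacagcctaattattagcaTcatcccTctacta

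The counts of these copies moved with their mitochondrial genes. MTND2P28 had 56.8% to 60.2% as many counts as MT-ND2 in AF and 55.7% to 59.5% in DMSO libraries, and MTCO1P12 had 34.2% to 35.6% as many as MT-CO1 in AF and 34.4% to 35.9% in DMSO libraries. MTND4P12, with few shared stretches, had 1.82% to 2.19% as many as MT-ND4 in AF and 1.84% to 2.19% in DMSO libraries. The log2 fold change of MTND2P28 was -0.54 ± 0.08 (SE, edgeR adjusted p = 0.0004), next to the -0.56 of MT-ND2, and that of MTCO1P12 was -0.25 ± 0.09 (adjusted p = 0.071), next to the -0.24 of MT-CO1. How reads that fit both places were divided is not given in the sources used here, so the levels of MT-ND1, MT-ND2, MT-CO1, MT-CO2, MT-ATP6, MT-CO3 and MT-ND4 are uncertain, while the log2 fold change of each copy differed from its gene's by at most 0.07. MT-CYB, MT-ND3, MT-ND4L, MT-ND5, MT-ND6 and MT-ATP8 had no copy with a mean of 1000 counts.

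Counts of both mitochondrial rRNAs rose, against the direction of the mRNAs. The libraries were made from poly-A RNA, so these are rRNA counts in such libraries, and rRNA amounts in the cells were not measured. The part of rRNA capture in this rise was not tested. MT-RNR1, the rRNA of the small mitochondrial ribosomal subunit, had 3391, 489.6, 479 and 550.2 CPM in AF replicates 1 to 4, against 392, 407, 444 and 401 CPM in DMSO replicates 1 to 4. MT-RNR2, the rRNA of the large subunit, had 8713, 4341, 4358 and 4785 CPM in AF, against 3655, 3631, 3948 and 3846 CPM in DMSO. For both, every AF library was above every DMSO library, an order that 9.86% of all genes tested had. AF replicate 1 was far above the other 3 AF libraries. Both were called higher in the 8-library fit, as were 7.62% of all genes tested. The log2 fold changes with 8 libraries were 1.58 ± 0.50 for MT-RNR1 (SE, edgeR adjusted p = 0.044) and 0.56 ± 0.18 for MT-RNR2 (adjusted p = 0.046). Without AF replicate 1 they were 0.30 ± 0.07 (adjusted p = 0.0064) and 0.25 ± 0.06 (adjusted p = 0.0079), where 6.82% of all genes were called higher. The 8-library call of both was lost when any 1 of the 4 DMSO libraries was left out, with adjusted p of 0.076 to 0.12, and DESeq2 gave MT-RNR2 an adjusted p of 0.15 and MT-RNR1 none.

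AF replicate 1 also differed in the balance of the rRNAs. Its counts of MT-RNR1 were 0.389 of those of MT-RNR2, while AF replicates 2 to 4 were at 0.110 to 0.115 and the DMSO libraries at 0.104 to 0.113. The high nuclear ribosomal RNA and RN7SL1 of that library moved with these values, and their part was not tested. Among the other 7 libraries that ratio spanned 0.104 to 0.115, and the mean of AF replicates 2 to 4 was 123% of the DMSO mean for MT-RNR1 and 119% for MT-RNR2.

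The rRNAs can also be set against the mRNAs of the same library. Mitochondrial rRNA counts were 0.747, 0.278, 0.290 and 0.280 of the mRNA counts in AF replicates 1 to 4, against 0.205, 0.176, 0.182 and 0.207 in DMSO replicates 1 to 4. This ratio uses no scaling from nuclear genes. All AF libraries exceeded all DMSO libraries, which follows from the lower mRNA share and the higher rRNA share given above. The ratio therefore adds no separate support. AF replicates 2 to 4 lay within 0.278 to 0.290.

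Among the 22 tRNA genes, 15 had enough counts to test and most of these did not pass. The 7 that did not reach the filter, MT-TV, MT-TI, MT-TW, MT-TD, MT-TK, MT-TG and MT-TR, held 3 to 77 counts each over all 8 libraries, and all are heavy-strand genes. The 8 light-strand tRNAs were all testable and held 94.5% to 96.5% of tRNA counts in AF and 91.7% to 94.0% in DMSO libraries. With auranofin 3 tRNAs were lower (MT-TQ, MT-TT and MT-TY) and 1 was higher (MT-TP), where 7.81% of all genes tested were lower and 7.62% higher, so that 1 of 15 higher is near the background. The median log2 fold change of the 15 was -0.41. Every AF library was below every DMSO library for 2 of the 15 and above for 1, where 9.68% and 9.86% of all genes tested had these orders. Without AF replicate 1 MT-TT (-0.99) and MT-TY (-0.53) were lower and MT-TP was higher.

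MT-TP and MT-TT, the tRNAs for proline and threonine, are neighbours beside MT-CYB and are read from opposite strands. MT-TP is the first gene reached by transcription of the light strand, and MT-TT follows MT-CYB on the heavy-strand precursor. Their sequences are shown with the anticodon in capitals, because these neighbours went opposite ways: MT-TP at chrM:15956-16023 on the minus strand and MT-TT at chrM:15888-15953 on the plus strand.
MT-TP: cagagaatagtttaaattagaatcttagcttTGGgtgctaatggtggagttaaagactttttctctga
MT-TT: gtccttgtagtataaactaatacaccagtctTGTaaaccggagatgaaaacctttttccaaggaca
MT-TP had 76.1, 71.5, 76.6 and 105.6 CPM in AF, against 64.4, 62.3, 66.6 and 66.4 CPM in DMSO. Every AF library was above every DMSO library, with AF replicate 4 the highest. The log2 fold change was 0.34 ± 0.10 (SE, edgeR adjusted p = 0.026) and 0.38 without AF replicate 1 (adjusted p = 0.018). Without AF replicate 4, the highest library, it was 0.20 (adjusted p = 0.015), and the call was lost without DMSO replicate 1 (0.061), 2 (0.077) or 3 (0.054). MT-TT had 0.955, 0.919, 0.683 and 0.975 CPM in AF, against 1.16, 2.10, 2.13 and 1.44 CPM in DMSO. These AF values were all below the DMSO values, and the log2 fold change of -0.95 ± 0.25 (edgeR adjusted p = 0.020) did not pass without AF replicate 3 (0.075), DMSO replicate 2 (0.080) or DMSO replicate 3 (0.076). MT-TP counts were 77.8 to 112 times those of MT-TT in AF libraries and 29.7 to 55.4 times in DMSO libraries. That these ratios did not overlap follows from the opposite orders of the genes, for which they were picked, and is no separate result. MT-TT held only 18 to 54 counts per library.

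The other called tRNAs are light-strand genes. MT-TY, the tRNA for tyrosine (chrM:5826-5891, minus strand), lies in a cluster with those for cysteine, asparagine and alanine. MT-TQ, the tRNA for glutamine (chrM:4329-4400, minus strand), lies opposite the end of MT-TI. Both are shown, anticodon in capitals, as the light-strand tRNAs that fell.
MT-TY: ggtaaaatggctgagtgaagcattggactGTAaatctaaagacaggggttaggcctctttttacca
MT-TQ: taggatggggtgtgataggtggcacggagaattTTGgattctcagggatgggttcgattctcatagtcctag
MT-TY had 10.3, 14.1, 10.1 and 7.99 CPM in AF, against 15.3, 15.8, 17.2 and 13.7 CPM in DMSO. Its groups overlapped in 1 pair of libraries, AF replicate 2 and DMSO replicate 4, and it fell by 0.54 ± 0.14 on the log2 scale (edgeR adjusted p = 0.017, and 0.055 without DMSO replicate 3). MT-TQ had 0.318, 0.296, 0.293 and 0.273 CPM in AF, against 0.616, 0.854, 0.511 and 0.577 CPM in DMSO, at 96 counts over all libraries. Its groups did not overlap, and its log2 fold change of -1.11 ± 0.33 (edgeR adjusted p = 0.034) passed with 8 libraries and failed when any 1 library other than DMSO replicate 4 was left out.

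The neighbours of MT-TY in the cluster did not pass. MT-TC, for cysteine, had 12.95, 16.4, 13.9 and 9.71 CPM in AF, against 17.7, 14.8, 17.4 and 16.5 CPM in DMSO. MT-TN, for asparagine, had 32.6, 42.5, 36.9 and 28.3 CPM in AF, against 36.9, 39.0, 56.0 and 38.7 CPM in DMSO. Both overlapped between groups, at log2 fold changes of -0.32 ± 0.13 and -0.28 ± 0.14 (edgeR adjusted p = 0.11 and 0.19), although MT-TC passed without AF replicate 2 (0.022). MT-TA, for alanine, had 19.4, 27.6, 23.3 and 11.6 CPM in AF, against 9.58, 23.0, 26.5 and 14.1 CPM in DMSO, a wide scatter in both groups, and its log2 fold change was 0.17 ± 0.28 (adjusted p = 0.73). MT-TS1, for serine, had 9.92, 12.2, 7.25 and 6.24 CPM in AF, against 10.7, 11.8, 5.32 and 11.53 CPM in DMSO, and did not pass (-0.14, adjusted p = 0.73). The remaining light-strand tRNA, MT-TE for glutamate, had 1.33, 1.69, 2.80 and 2.46 CPM in AF, against 1.92, 3.96, 4.38 and 2.98 CPM in DMSO, and did not pass either (-0.65, edgeR adjusted p = 0.11, but 0.033 without DMSO replicate 1). The reads of a gene and those of its antisense strand cannot be told apart where the strand setting of counting is not known, and this bears on MT-ND6 and on each light-strand tRNA.

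The heavy-strand tRNAs other than MT-TT were sparse. MT-TL1, the leucine tRNA that follows MT-RNR2, had 4.03, 5.04, 3.35 and 2.30 CPM in AF, against 4.31, 6.56, 6.47 and 4.56 CPM in DMSO, with overlapping groups (log2 fold change -0.57 ± 0.21, edgeR adjusted p = 0.087, but 0.026 without AF replicate 2). MT-TF, which precedes MT-RNR1, had 0.902, 1.04, 0.585 and 0.468 CPM in AF, against 0.753, 0.698, 1.11 and 0.577 CPM in DMSO. MT-TM had 1.22, 0.296, 0.163 and 0.273 CPM in AF, against 0.547, 0.621, 0.468 and 0.0961 CPM in DMSO, so that AF replicate 1 stood above the rest. The trio MT-TH, MT-TS2 and MT-TL2, which lies between MT-ND4 and MT-ND5, had 0.117 to 1.496 CPM in AF and 0.239 to 2.22 CPM in DMSO libraries. Those 3 had log2 fold changes of -1.05, -0.41 and -0.52, none of which passed (edgeR adjusted p = 0.15, 0.41 and 0.20).

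**Figure D3:**
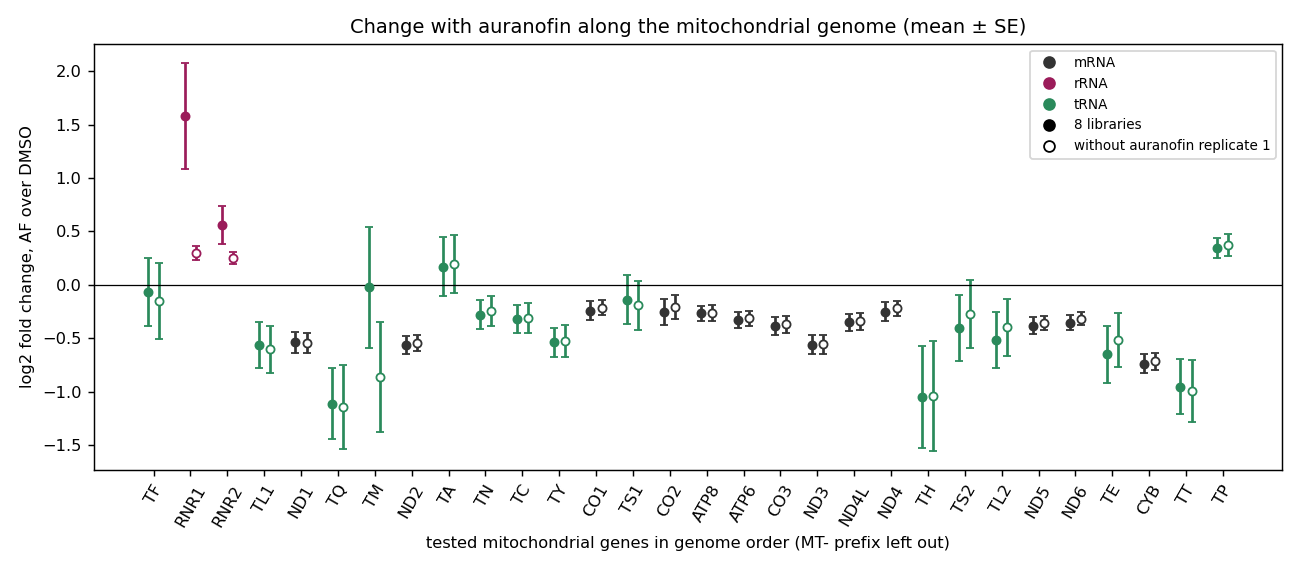
Log2 fold change (AF over DMSO, ± SE) of the 30 tested mitochondrial genes in genome order, coloured by class, from all 8 libraries (filled) and without AF replicate 1 (open). The 13 mRNAs lie between -0.74 and -0.24, the 2 rRNAs lie above 0 and come down to 0.30 and 0.25 without AF replicate 1, and the tRNA at the end, MT-TP, lies at 0.34.

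A second fit set each library's size to its total of the 13 mitochondrial mRNAs, so that a gene was compared with the pooled mRNAs of the same genome rather than with nuclear genes. The pool includes the gene tested. On this scale MT-CYB was lower (log2 fold change -0.41 ± 0.10, edgeR adjusted p = 0.0028), as the 1 mRNA called of 13, where 1.61% of all genes were lower and 43.5% higher. MT-CYB was 3.01%, 3.00%, 2.92% and 2.99% of mitochondrial mRNA counts in AF replicates 1 to 4, against 3.84%, 3.95%, 3.98% and 4.00% in DMSO replicates 1 to 4. The groups were far apart for their spread, and AF replicate 1 did not differ from its group.

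Without AF replicate 1, MT-ND1 (-0.23, edgeR adjusted p = 0.0495), MT-ND2 (-0.24, adjusted p = 0.040) and MT-ND3 (-0.27, adjusted p = 0.046) were also lower on this scale, where 1.88% of all genes were. With 8 libraries these 3 were at -0.20, -0.23 and -0.25 and did not pass (edgeR adjusted p = 0.13, 0.068 and 0.097). MT-ND2 also passed without AF replicate 4 (0.029), and MT-ND3 without DMSO replicate 3 (0.030). MT-ND2 was 4.37% to 4.55% of mitochondrial mRNA counts in AF and 5.14% to 5.28% in DMSO libraries, with no overlap. MT-ND3 was 1.67% to 1.88% in AF and 1.68% to 2.59% in DMSO libraries, and overlapped. The other 9 mRNAs lay between -0.054 and 0.09 in the 8-library fit and none of them passed.

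The rRNAs and 2 of the 15 tRNAs tested were higher on this scale. With 8 libraries 43.5% of all genes tested were called higher on it, at a median log2 fold change of 0.33, so the tRNA calls were fewer than that share. The log2 fold changes were 1.96 ± 0.39 for MT-RNR1 and 0.90 ± 0.18 for MT-RNR2 (edgeR adjusted p = 0.0004 and 0.0003), and 0.59 and 0.55 without AF replicate 1 (adjusted p = 3.1e-06 and 3.9e-08), where 34.2% of all genes were called higher. Both rRNA calls on this scale held when any 1 library was left out. MT-TP was at 0.66 ± 0.11 (edgeR adjusted p = 5.3e-05). MT-TA was at 0.55 ± 0.21 (adjusted p = 0.039), although it did not pass against nuclear genes, and it lost this call without AF replicate 2 (0.12), AF replicate 3 (0.059), DMSO replicate 1 (0.13) or DMSO replicate 4 (0.083). Its sequence (chrM:5587-5655, minus strand) is shown with the anticodon in capitals, as the tRNA whose call rests on the scale.
MT-TA: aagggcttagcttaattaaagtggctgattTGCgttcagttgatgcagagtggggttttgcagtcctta

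By complex, the shares of complexes I, III and IV in the mitochondrial mRNAs did not overlap between the groups, and these shares were not tested. Complex III, which is MT-CYB alone, was 2.92% to 3.01% of the mRNA counts in AF and 3.84% to 4.00% in DMSO libraries. Complex IV was 47.7%, 48.8%, 48.7% and 48.1% in AF replicates 1 to 4, against 45.1%, 47.2%, 47.0% and 44.6% in DMSO replicates 1 to 4, again with no overlap. Complex I was 42.4% to 43.1% in AF and 43.1% to 45.1% in DMSO libraries, where AF replicate 1 at 43.088% was just under the lowest DMSO library at 43.093%, and AF replicates 2 to 4 were at 42.4% to 42.8%. Complex V was 5.87% to 6.18% in AF and 5.53% to 6.33% in DMSO libraries, and overlapped. These shares sum to a fixed total, so a lower share of one complex comes with a higher share of others.

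**Figure D4:**
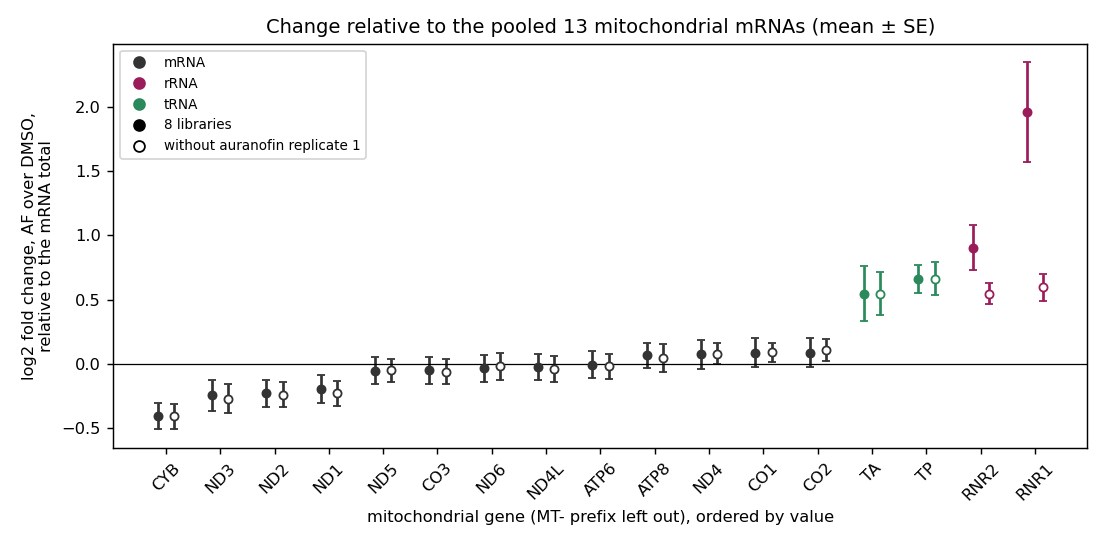
Log2 fold change (AF over DMSO, ± SE) relative to the pooled 13 mitochondrial mRNAs, for the mRNAs, the rRNAs and the tRNAs MT-TA and MT-TP, from all 8 libraries (filled) and without AF replicate 1 (open), ordered by value. MT-CYB is lowest at -0.41, MT-ND1, MT-ND2 and MT-ND3 lie at -0.20 to -0.25, the other mRNAs lie near 0, and the rRNAs and both tRNAs lie above 0.

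The rest of each respiratory complex is encoded in the nucleus, and 3 of those partners passed. The lists of nuclear genes were chosen with earlier results of these data known. Of 36 tested nuclear subunits of complex I (of 37 listed) none was lower or higher, beside 6 lower of 7 mitochondrial ones; NDUFS3, a core subunit of the peripheral arm, had the smallest p (-0.22 ± 0.07, edgeR adjusted p = 0.051). Of 9 in complex III, CYC1, which encodes cytochrome c1, was lower, at 91.9 ± 9.92 CPM in AF and 114 ± 11.0 CPM in DMSO (SD, n = 4 each; -0.31, edgeR adjusted p = 0.021). Of 11 in complex IV, COX5A was lower, at 81.0 ± 4.69 CPM in AF and 95.1 ± 2.91 CPM in DMSO (-0.23, edgeR adjusted p = 0.011), and so was COX6B1, at 124.7 ± 6.18 CPM in AF and 150.2 ± 20.9 CPM in DMSO (-0.27, edgeR adjusted p = 0.037). Of 17 in complex V none passed, with ATP5MF nearest (-0.24, edgeR adjusted p = 0.063). That makes 3 lower of 73 nuclear subunits tested, against 7.81% of all genes. COX5A did not overlap between groups, and CYC1 and COX6B1 did. The calls of CYC1 and COX6B1 were lost without AF replicate 3, DMSO replicate 2 or DMSO replicate 3 (adjusted p of 0.055 to 0.12), and that of COX6B1 also without AF replicate 4 (0.066), while all 3 nuclear subunits passed without AF replicate 1 (-0.33 for CYC1, -0.25 for COX5A and -0.28 for COX6B1). NDUFS3 passed without AF replicate 1 (0.030), and ATP5MF without DMSO replicate 1 (0.049) or 4 (0.012).

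The medians of the nuclear subunits were -0.10 in complex I, -0.0058 in complex III, -0.14 in complex IV and -0.07 in complex V, against 0.005 for all genes tested. Those of the mitochondrial subunits in the same complexes were -0.39, -0.74, -0.25 and -0.30. The difference between the genomes was not tested. Without AF replicate 1, 5 nuclear subunits of complex I, 1 of III, 3 of IV and 1 of V were lower. That makes 10 of 73 tested, where 8.2% of all genes were lower. With 8 libraries 54 of the 73 nuclear subunits had a negative log2 fold change, where 8623 of 17535 genes tested had. Without AF replicate 1 it was 55 of 73, where 8905 of 17827 genes had. Over the 8 nuclear lists 4 of 116 genes tested were lower with 8 libraries. Leaving out AF replicate 1, AF replicate 4 or DMSO replicate 4 gave 13, 7 and 10, and leaving out any of AF replicate 3, DMSO replicate 2 and DMSO replicate 3 gave 1, while the share of all genes called lower was 4.71% to 8.32% over these fits. Over libraries 2 and 3 of each group alone, a division chosen after the data were seen, 41 genes of the 8 nuclear lists were lower, and over libraries 1 and 4 alone none was, beside 4 in the 8-library fit. In the same divisions 13 and 2 of the 13 mitochondrial mRNAs were lower. The calls over all genes moved the same way, with 15% lower over libraries 2 and 3 and 0.55% over libraries 1 and 4. The nuclear lists were under the share of all genes with 8 libraries and over it with libraries 2 and 3 alone.

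**Figure D5:**
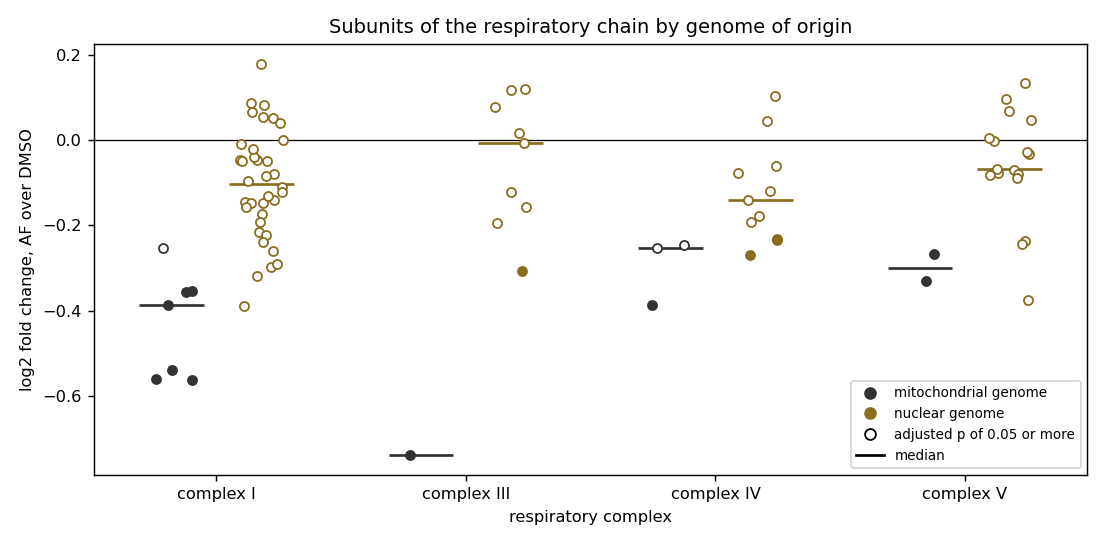
Log2 fold change (AF over DMSO) of each tested respiratory chain subunit by complex, with mitochondrially encoded subunits left of nuclear ones, filled where the edgeR adjusted p was below 0.05 and with a line at the median. Mitochondrial medians lie at -0.39, -0.74, -0.25 and -0.30 for complexes I, III, IV and V, and nuclear medians between -0.14 and -0.0058, with CYC1, COX5A and COX6B1 the filled nuclear points.

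Most nuclear genes that make and process mitochondrial RNA did not pass either. None of 8 transcription genes passed: POLRMT, the RNA polymerase, had 48.1, 48.1, 40.5 and 35.2 CPM in AF, against 43.6, 51.2, 47.1 and 42.7 CPM in DMSO, with overlapping groups (log2 fold change -0.10 ± 0.10, edgeR adjusted p = 0.51). TFAM, which packages the genome and starts its transcription, had 20.5, 19.5, 20.3 and 22.5 CPM in AF, against 19.3, 14.9, 17.96 and 23.7 CPM in DMSO (0.13 ± 0.12, adjusted p = 0.52). TEFM, the elongation factor, had the smallest p of that list, at 6.23 ± 0.93 CPM in AF and 7.79 ± 0.18 CPM in DMSO (SD, n = 4 each; -0.33, edgeR adjusted p = 0.077, but 0.023 without AF replicate 4).

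Of 17 RNA processing and stability genes 1 was lower. This was ELAC2, the enzyme that cuts the trailing end of mitochondrial tRNAs, with 24.0, 22.7, 23.4 and 20.9 CPM in AF, against 25.7, 29.95, 29.8 and 27.3 CPM in DMSO, and no overlap (-0.31 ± 0.09, edgeR adjusted p = 0.037). It passed without AF replicate 1 (-0.34, edgeR adjusted p = 0.018). Its call was lost when any 1 of AF replicates 2 to 4 or DMSO replicates 2 or 3 was left out. LRPPRC, which stabilises mitochondrial mRNAs, had 194 ± 20.1 CPM in AF and 211 ± 10.1 CPM in DMSO and did not pass (-0.12 ± 0.07, edgeR adjusted p = 0.29, but 0.024 without AF replicate 4). None of 6 rRNA modification genes tested passed, with METTL15, a methyltransferase of the small-subunit rRNA, nearest at 0.25 ± 0.12 (edgeR adjusted p = 0.19). None of 12 genes of mitochondrial DNA replication and nucleotide supply passed, with TOP1MT, the mitochondrial topoisomerase, nearest (-0.25 ± 0.09, edgeR adjusted p = 0.076, and 0.028 without AF replicate 1).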

How the data were processed

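Poly-A RNA of 8 THP-1 foam cell libraries (4 AF, 4 DMSO) was sequenced by an automated stranded method (250 ng RNA input, per the labels' protocols). The data the authors deposited are raw gene counts, not normalised. The submitters' processing notes list the tools STAR 2.6.1d, featureCounts and Subread 1.6.3 and the GRCh38 build. Annotation, strand setting and handling of multi-mapped reads and of reads that overlap 2 genes are not stated in the sources used here. Columns were matched to samples by title.

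The main test was edgeR 4.0.16 (R 4.3.3) on these counts: TMM scaling, filterByExpr defaults (17535 genes kept), glmQLFit and glmQLFTest on drug against vehicle, two-sided, Benjamini-Hochberg over all genes tested, 6 residual degrees of freedom. Standard errors were taken as the size of the log2 fold change over the root of F. CPM use TMM-scaled library sizes. A further fit used the total of the 13 mitochondrial mRNAs as library size. Positions and sequences are from GENCODE 29, whose strand and boundaries may differ from those counted. Without molecular identifiers, counts are not independent molecules.

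The members, the nuclear lists and the tests were chosen with earlier results of these data known. By rule, all 37 members were accounted for; of each nuclear list up to 3 called members with the smallest p were named, or the 1 with the smallest p where none was called, plus POLRMT, TFAM and LRPPRC, and nuclear copies of mitochondrial genes with a mean of at least 1000 counts. No 2 libraries of a group agreed within sampling noise (lowest chi-square per degree of freedom 2.95), so none was taken for a copy of another and all entered singly. Libraries made from 1 culture could also differ by more than sampling noise, so this check does not show separate cultures. The fit was tested on simulated counts. Alternatives were DESeq2 1.42.0, other scalings and filters, a replicate block, summed libraries and leaving out libraries. The summed libraries were those whose names in the labels share a stem.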

Additional observations from a re-analysis of the deposited data

Results flagged for a closer look

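In groups of 4 libraries, 8 of 84 sets of values had 1 library far from the rest of its group by Dixon's gap criterion. Chance flags about 1 in 20 groups by it. Several of the 8 are built from the same rRNA counts, so they are not separate departures and cannot be held against that rate. Most of the 8 concern AF replicate 1. Its MT-RNR1 level was 3391 CPM (479 to 550.2 CPM in the other AF libraries), its MT-RNR2 level was 8713 CPM (4341 to 4785 CPM), its mitochondrial rRNA share was 0.821% of all counts (0.504% to 0.558%), its ratio of MT-RNR1 to MT-RNR2 counts was 0.389 (0.110 to 0.115) and its ratio of mitochondrial rRNA to mRNA counts was 0.747 (0.278 to 0.290). MT-TM was also high in AF replicate 1, at 1.22 CPM against 0.163 to 0.296 CPM in the other AF libraries. MT-TP was high in AF replicate 4, at 105.6 CPM against 71.5 to 76.6 CPM in the other AF libraries. MT-TN was high in DMSO replicate 3, at 56.0 CPM against 36.9 to 39.0 CPM in the other DMSO libraries.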

How the results depend on the processing

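The number of mitochondrial mRNAs called lower was 10, and 4 with library totals alone, a scaling that moved the median of all genes by -0.145 (log2) and left 20.7% of calls higher against 49.4%. Over libraries 1 and 4 alone 2 were called, and leaving out 1 library gave 9 to 12. Both rRNAs were called higher in the 8-library fit, against 0 with DESeq2 (MT-RNR1 had no adjusted p), 1 with library totals, 0 over libraries 1 and 4, and 0 to 2 when 1 library was left out. The 3 tRNAs called lower became 7 with no filter on low counts, 1 at a filter of 10 CPM in 4 libraries, 0 over libraries 1 and 4, 6 over libraries 2 and 3, and 0 to 4 when 1 library was left out; the 1 called higher became 0 with library totals and over libraries 1 and 4, and 0 to 1 when 1 library was left out. Relative to the mRNA total, the 1 member called lower became 2 with DESeq2 or no filter, 3 with scaling to all 37 genes, 0 over libraries 1 and 4, 4 over libraries 2 and 3, and 1 to 4 when 1 library was left out. The 4 called higher became 2 with DESeq2, 0 over libraries 1 and 4, 7 over libraries 2 and 3, and 3 to 4 when 1 library was left out. Of 116 genes tested in the nuclear lists 4 were lower, against 15 with DESeq2, 0 with library totals and 7 with summed libraries. With no filter 12 of 118 were lower, and with the stricter filter 11 of 103. Over libraries 1 and 4 the count was 0, over libraries 2 and 3 it was 41, and leaving out 1 library gave 1 to 13. In the main fit 0 were higher, against 1 with no filter, 4 over libraries 2 and 3, and 0 to 1 when 1 library was left out. The difference in mRNA share was -0.752 to -0.454 percentage points when 1 library was left out. The causes of these shifts were not tested, apart from the fewer libraries or genes that an alternative itself uses.

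Sign changes concerned members that did not pass in the 8-library fit. MT-TA turned to -0.012 and -0.049 without AF replicate 2 and without DMSO replicate 1 (range when 1 library was left out -0.049 to 0.40), MT-TS1 to 0.18 over libraries 2 and 3, MT-TM to 0.019 with no filter and 1.02 over libraries 1 and 4 (-0.86 to 0.30 when 1 library was left out), MT-TF to positive values when 1 library was left out (-0.30 to 0.13), MT-CO2 to 0.023 over libraries 1 and 4, and TFAM to -0.023 with library totals. Relative to all 37 genes instead of the mRNAs, MT-CO1 was at -0.12, MT-CO2 at -0.12, MT-ATP8 at -0.14 and MT-ND4 at -0.13. Over libraries 2 and 3, relative values were -0.029 for MT-CO2, 0.057 for MT-ATP6, 0.048 for MT-ND3 and 0.14 for MT-ND6. Leaving out 1 library, the relative value of MT-ATP6 ranged from -0.055 to 0.027 and that of MT-ND6 from -0.088 to 0.010.

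Replicate numbers are shared between the groups, and whether they pair the libraries is not known. Same-numbered libraries correlated in their deviations at 0.0937, 0.129, 0.0288 and 0.192, and all other pairs between the groups at -0.128 to 0.0416. AF replicates 1, 2 and 4 correlated best with the DMSO library of the same number, and AF replicate 3 with DMSO replicate 2. The main fit used no pairing. With a replicate block 12 mRNAs were lower, 1 rRNA was higher, 5 tRNAs were lower and 1 was higher, 2 members were lower relative to the mRNA total, and 20 nuclear genes were lower and 2 higher. With that block 11.9% of all genes tested were called lower, against 7.81% in the main fit. Depth limits the sparse tRNAs: the 7 under the filter held at most 77 counts over all libraries.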
